A study of Mus musculus with 5 samples.

Results

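The Bcl2 family of survival and death genes was followed through the cells of injured and sham-operated mouse kidneys. The family described here had 10 members, of the 32285 genes in the deposited matrix: Bcl2a1a, Bcl2a1b, Bcl2a1d, Mcl1, Bcl2 and Bcl2l1 on the survival side, and Bax, Bcl2l11, Bbc3 and Pmaip1 on the death side. Every member was found in the matrix under its symbol. The Bcl2a1 genes were picked from their measured level, which was high in one group of neutrophils of these same cells, and the others were listed with them as relatives. The Bcl2a1 levels in neutrophils are therefore a description of how the genes were chosen.

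Proteins of the Bcl2 family decide whether a cell permeabilises its mitochondria and dies by apoptosis. The survival members (A1, encoded by the Bcl2a1 copies, and Mcl1, Bcl2 and Bcl-xL) hold back the pore-forming effectors Bax and Bak, and the BH3-only members (Bim from Bcl2l11, Puma from Bbc3, Noxa from Pmaip1) bind the survival members and set the effectors free. Neutrophils are short-lived cells known to depend on the rapidly turned-over Mcl1 and A1, whereas resting lymphocytes are known to depend on Bcl2, and Puma and Noxa are p53 targets known from injured tubular epithelium.

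The samples were kidneys of sham-operated mice and kidneys taken on days 1, 3, 14 and 28 after unilateral ischaemia-reperfusion (UIR), a model of acute kidney injury in which the left renal pedicle was clamped and the right kidney left intact. The mice were young adult C57BL/6J males, with no transgene named for these samples, and the labels give 1 sample per condition and 3 mice per kidney sample, while how mice were pooled into libraries is not clear from the sources used here. Kidneys were enzymatically dissociated and red cells lysed, and 10x 3′ libraries were counted as unique molecular identifiers (UMIs), each standing for 1 captured transcript. The matrix held 5 libraries, told apart by the number at the end of each barcode, and no label used here ties a number to a condition. Libraries are therefore named 1 to 5 with no order in time, the matrix counts as 1 pooled sample, and no test between conditions was made. The intervals below are exact 95% intervals that cover counting error only, not differences between mice.

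In all, 57618 cells were kept, 8271 to 19013 per library, with library medians of 4038 to 5329 UMIs per cell. Of 57267 distinct barcodes, 350 occurred in more than 1 library, on 701 cells, which is 1.22% of all cells. Cells were placed in classes by marker gates, in which a cell had to carry at least 3 different markers of a class and at least 10 marker UMIs per 10000 (50 for proximal tubule). The gates gave 49706 cells in 16 classes, 86.3% of those kept. That share was 75.9% in library 3 and 87.8% to 95.9% in the others. Of the 6111 cells that passed no gate, 4026 were in library 3. The gated cells included 1262 neutrophil-like cells, at 57, 561, 473, 170 and 1 in libraries 1 to 5. Beside them were 1078 macrophage-like, 1061 T cell-like and 43910 proximal tubule-like cells. With the UMI limits doubled, 0.396% of neutrophil-like, 24.2% of proximal tubule-like and 29.3% of dendritic-like cells fell out of their class. In each class, no marker of another class stood among the 10 leading genes. Cells that passed several gates, other than monocyte and macrophage gates together, were left out of the classes, so this is no check of them. The class's own markers among these 10 numbered from 1 in proximal tubule-like to 6 in neutrophil-like cells. The labels name the cell type as goblet cell. The defining goblet cell genes were absent or nearly so, with 21 UMIs of Muc2 and 0 of Zg16 in all kept cells, and 0 of 57618 cells carried 3 or more of the 5 genes checked (Muc2, Spdef, Fcgbp, Zg16 and Clca1). That label was therefore not used.

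The Bcl2a1 copies are shown first by sequence, because their likeness limits what can be said about each one. All lie on chromosome 9 (GRCm38, GENCODE vM21): Bcl2a1d at chr9:88723285-88731914 on the minus strand, Bcl2a1a at chr9:88956900-88962419 and Bcl2a1b at chr9:89199209-89207827 on the plus strand. The promoter windows of RefSeq (GRCm38.p6, 250 bases before to 50 after the start) were 99.2% identical between Bcl2a1a and Bcl2a1b, 98.0% between Bcl2a1a and Bcl2a1d and 98.8% between Bcl2a1b and Bcl2a1d over the aligned bases. The 100-base block that follows lies upstream of all 3 starts, from chr9:88956717-88956816 for Bcl2a1a, chr9:89199026-89199125 for Bcl2a1b and chr9:88731948-88732047 for Bcl2a1d, each written 5′ to 3′ on the strand of its gene. The capital marks the 1 position that differs among them.
Bcl2a1a: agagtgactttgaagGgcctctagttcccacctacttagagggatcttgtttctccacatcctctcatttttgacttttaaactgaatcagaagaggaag
Bcl2a1b: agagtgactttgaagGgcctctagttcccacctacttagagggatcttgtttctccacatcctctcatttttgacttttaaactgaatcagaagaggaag
Bcl2a1d: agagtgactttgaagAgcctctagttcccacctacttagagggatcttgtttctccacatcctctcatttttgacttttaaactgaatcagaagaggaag

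The transcripts were also alike at their 3′ ends, where these libraries were read. Over the last 500 bases, 39.7% of the 90-base windows of Bcl2a1a, 66.2% of those of Bcl2a1b and 65.2% of those of Bcl2a1d occurred in another gene as well. For Mcl1, Bcl2, Bcl2l1, Bcl2l11, Bbc3 and Pmaip1 that share was 0 in every coding transcript, and 2 of 5 Bax transcripts had 15.3% and 41.3%. UMIs of a single Bcl2a1 copy are therefore uncertain, and levels below are given for the sum of the 3 copies unless a copy is named. The other members lie elsewhere: Mcl1 at chr3:95658788-95663176, Bcl2 at chr1:106538178-106714274, Bcl2l1 at chr2:152780668-152831728, Bcl2l11 at chr2:128126038-128162547, Bax at chr7:45461697-45466898 and Bbc3 at chr7:16308393-16318205, with Pmaip1 on chromosome 18. An NF-kB motif was searched on both strands of the promoter windows and occurred in 8.46% of 32851 windows, among them 1 of 3 of Bcl2l1 and 1 of 3 of Bbc3 and none of the Bcl2a1 copies. A p53 half-site occurred in 8.36%, among them that of Bax. These are matches of letters, and nothing about binding follows from them.

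Levels are given as CPM, the UMIs of a gene summed over the cells of a class and scaled to 1000000 UMIs of that class, and are compared within a gene. Each member had its own distribution over the 16 classes. Bcl2a1 UMIs came mostly from leukocyte-like classes, at 1197 CPM against 3.58 in tubule-like cells. Mcl1 was highest in neutrophil-like cells, Bcl2 in NK cell-like and T cell-like cells, Bcl2l1 in endothelial-like cells and Pmaip1 in dendritic-like cells. Bax varied least, from 96.3 CPM in intercalated-like to 294 in macrophage-like cells.

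**Figure D1:**
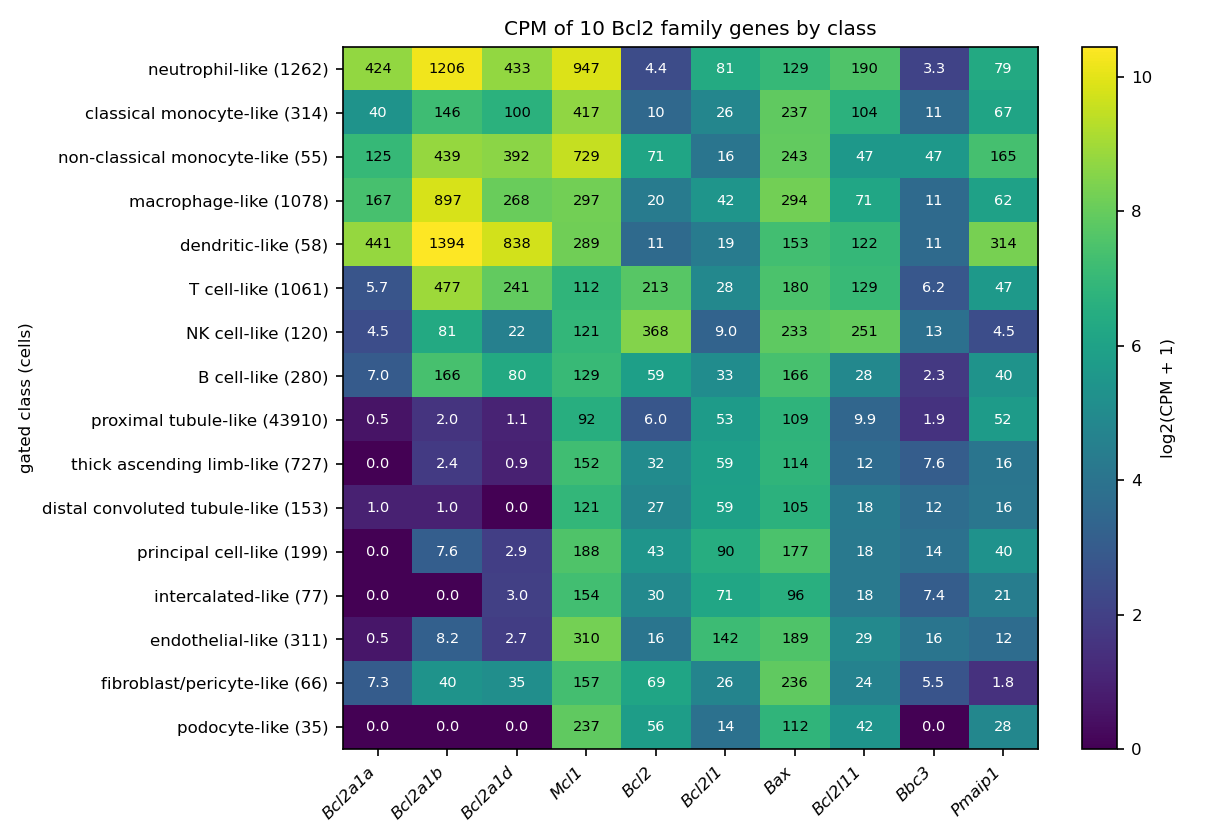
Levels of the 10 members (columns) in the 16 gated classes (rows, with cell numbers), all libraries pooled. The number in each cell of the map is CPM and the colour its log2 after adding 1. The Bcl2a1b column runs from 1394 in dendritic-like to 0 in podocyte-like cells, and the highest Bcl2 value is that of NK cell-like cells at 368.

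Bcl2a1 was highest in dendritic-like cells, at 2673 CPM (interval 2507 to 2848, 58 cells), and next in neutrophil-like cells at 2064 (1998 to 2131). Macrophage-like cells followed at 1332, non-classical monocyte-like cells at 956, T cell-like cells at 723, classical monocyte-like cells at 286 and B cell-like cells at 253. NK cell-like cells had 108 and proximal tubule-like cells 3.53. In this pooled order, classical monocyte-like and B cell-like cells did not differ beyond counting error, and each earlier class differed from the next. The first 2 places turned between libraries, with dendritic-like above neutrophil-like cells in library 1 (3112 against 2055) and below them in library 2 (2742 against 3308). No UMI was seen in 35 podocyte-like cells, which allows a level of up to 41.9.

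The level also differed between libraries. In neutrophil-like cells the Bcl2a1 level was 2055, 3308, 647 and 2950 CPM in libraries 1 to 4, and library 5 had 1 such cell. Library 3 stood lowest, outside the intervals of the other 3 libraries. Macrophage-like cells had 1898, 1437, 744, 1077 and 1211 in libraries 1 to 5, and T cell-like cells 840, 732, 469, 626 and 699. Library 3 was thus lowest in each of these 3 classes, although in T cell-like cells its interval overlapped those of libraries 4 and 5. Classical monocyte-like cells had no such dip, with 204, 276 and 272 in libraries 2, 3 and 4. Dendritic-like cells numbered 20 or more only in libraries 1 and 2.

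**Figure D2:**
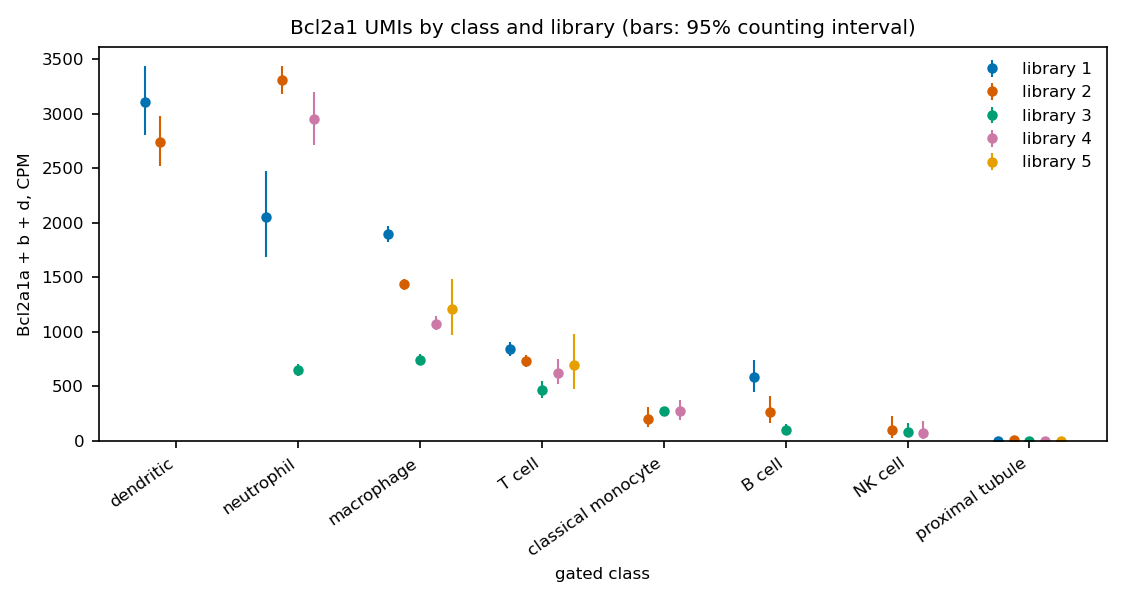
Sum of Bcl2a1a, Bcl2a1b and Bcl2a1d in CPM (vertical axis) for 8 gated classes (horizontal axis), 1 point per library with at least 20 cells of the class, bars giving the 95% counting interval. Library 3 lies at 647 in neutrophil-like cells against 2055 to 3308 in libraries 1, 2 and 4.

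Set against monocyte/macrophage-like cells, neutrophil-like cells held more Bcl2a1, by 0.85 on the log2 scale (0.79 to 0.91; 2064 against 1144). Within libraries 1 to 4 the difference was 0.17 (-0.12 to 0.45), 1.26, 0.25 and 1.59, and without library 2 the pooled value was 0.17. These values are descriptions, because the Bcl2a1 genes were picked for their level in a group of neutrophils of these same cells. The direction was the same in 4 of 4 libraries, which is no independent check, while the interval of library 1 included 0. Bcl2a1d alone went the other way in library 3 (-0.52, -0.91 to -0.14). A share of cells gave another order. When all cells were sampled down to the depth of 1000 UMIs, 55.3% of neutrophil-like, 61.7% of macrophage-like, 72.4% of dendritic-like and 44.5% of T cell-like cells had a Bcl2a1 UMI, against 0.34% of proximal tubule-like cells. Without thinning the shares were 58.0%, 81.7%, 89.7%, 59.0% and 1.23%, at median depths of 1282, 4011.5, 5959, 1753 and 5151 UMIs. Thinning left out 287, 93, 0, 63 and 5254 shallower cells of these classes.

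Bcl2a1 RNA was also present in droplets without a cell. At the ranks taken as ambient, the sum was 43.2, 106, 10.0, 14.5 and 1.11 CPM in libraries 1 to 5. Proximal tubule-like cells lay below this in every library, at 4.06, 7.57, 2.68, 3.13 and 0.304. No expression is read from their Bcl2a1 UMIs.

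The copies did not contribute equally in all classes. Bcl2a1a made up 20.6% of the Bcl2a1 UMIs in neutrophil-like cells (766 of 3724, interval 19.3% to 21.9%), 16.5% in dendritic-like cells and 12.5% in macrophage-like cells. In T cell-like cells it made up 0.793% (13 of 1640, 0.423% to 1.35%), and in B cell-like cells 2.78% (3 of 108, 0.577% to 7.90%). T cell-like cells had 5.73 CPM of Bcl2a1a beside 477 of Bcl2a1b and 241 of Bcl2a1d. Their Bcl2a1a level was 2.58, 9.53, 6.46 and 0 in libraries 1 to 4, where the 0 allows up to 15.7. Ambient droplets of these libraries had 4.94, 17.8, 1.04 and 2.75 CPM of Bcl2a1a. The intervals overlapped in each, so no expression is read from the T cell-like Bcl2a1a UMIs.

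The low share in T cell-like cells was seen in each library. It was 0.307%, 1.30%, 1.38%, 0% and 0% in libraries 1 to 5, where the 0 of 120 UMIs in library 4 allows a share of up to 2.5% and the 0 of 33 in library 5 up to 9.09%. In neutrophil-like cells of libraries 1 to 4 the share was 16.4%, 21.5%, 17.6% and 20.03%, with no overlap between the intervals of the classes in any of the 4 libraries. Macrophage-like cells spread more widely, at 14.7%, 13.6%, 6.41%, 8.42% and 27.8%. Ambient droplets of libraries 1 to 4 held 11.4%, 16.7%, 10.4% and 18.9% of their Bcl2a1 UMIs as Bcl2a1a, above the T cell-like share of the same library each time. The intervals of the T cell-like and ambient shares did not overlap in any of these libraries.

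**Figure D3:**
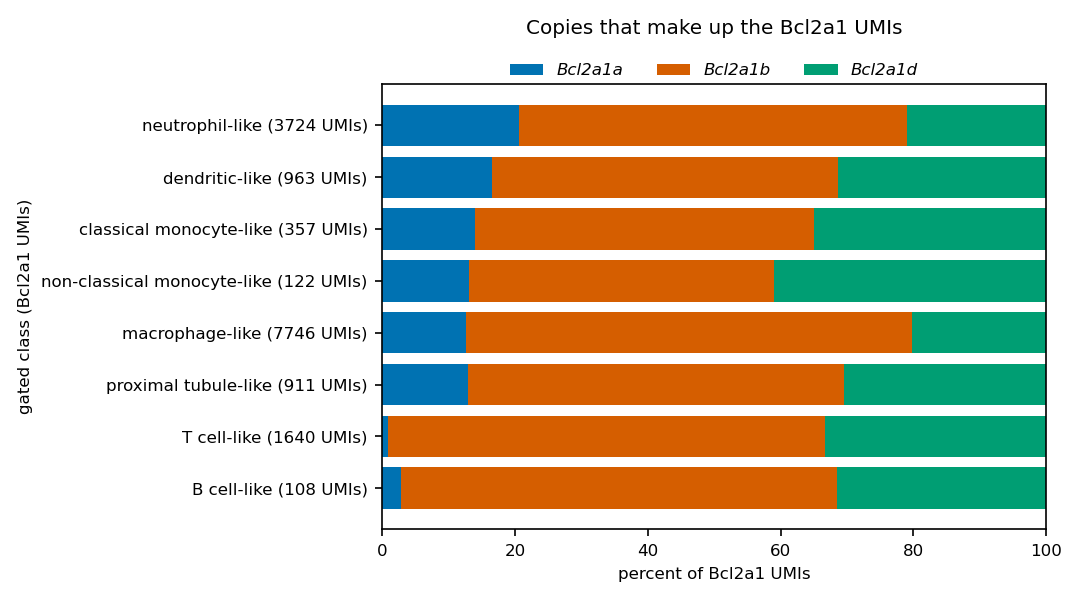
Share of Bcl2a1 UMIs assigned to each copy (horizontal axis, percent, bars adding to 100) in 8 gated classes, with the number of Bcl2a1 UMIs beside each name. The Bcl2a1a segment is 20.6% in neutrophil-like and 0.793% in T cell-like cells. Reads shared by the copies limit the exact split.

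Neutrophil-like cells were then divided by a UMI of Siglecf, a sialic acid-binding receptor known on eosinophils and on a subset of tissue neutrophils. There were 110 Siglecf-positive cells, at 4, 63, 13, 30 and 0 in libraries 1 to 5, and 1152 others. The Bcl2a1 level was 3261 in the first and 1953 in the second, a log2 difference of 0.74 (0.60 to 0.88). The libraries were not alike in this. Within library 2 the levels were 3467 and 3286 (0.08, -0.10 to 0.25) and within library 4 they were 4274 and 2644 (0.69, 0.42 to 0.96). The pooled value was 0.23 without library 3 and 1.47 without library 2. Each copy showed the same pattern, with 0.80, 0.67 and 0.87 for Bcl2a1a, Bcl2a1b and Bcl2a1d pooled and 0.11, 0.06 and 0.08 in library 2.

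The other members were fewer in UMIs. Bax was 216 against 120 in Siglecf-positive and other cells (0.84, 0.26 to 1.38) and Pmaip1 144 against 73.3 (0.98, 0.25 to 1.64). For both, the ratio was above 0 in libraries 2 and 4, at 0.64 and 1.47 for Bax and 0.28 and 1.94 for Pmaip1, and the interval in library 2 included 0. In library 4 the ambient level of Bax was 126, above that of all neutrophil-like cells there. The part of ambient RNA in the Bax difference was not tested. Mcl1 was 1126 against 930 (0.28, 0.04 to 0.50) and -0.02 within library 2. For Bcl2l1 (98.2 against 79.9; 0.30, -0.58 to 1.07) and Bcl2l11 (203 against 189; 0.10, -0.48 to 0.64) the interval included 0. Bcl2 and Bbc3 had 8 and 6 UMIs in all neutrophil-like cells, too few to compare.

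Of the 8 members with at least 20 UMIs in this comparison, 0 were at least 2-fold higher and 0 at least 2-fold lower, beside 11.0% of 6527 genes higher and 15.5% lower. The median over the 8 members was 0.73 on the log2 scale and over all genes 0.11. The 3 Bcl2a1 copies, chosen for this level, are among the 8 and set that median, so nothing is read from it. Of 6 eosinophil genes (Epx, Prg2, Prg3, Ccr3, Il5ra, Ear6), 0 had a UMI in Siglecf-positive cells and 3 had one in the other cells, with 6 UMIs in sum. In Siglecf-positive cells 3 UMIs would give 19.6 CPM, above the 3.63 of the other cells, so no difference is read. The 8 neutrophil markers together were lower in Siglecf-positive cells, at 43600 against 88425 CPM, and the macrophage markers were at 164 against 159. The part of the lower neutrophil markers in the result was not tested.

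A second division, chosen as an alternative, used a UMI of the chemokine genes Ccl3 or Ccl4. The 454 cells with one had a Bcl2a1 level of 3120 and the 808 without one 1438, a log2 difference of 1.12 (1.02 to 1.21). Within libraries 2, 3 and 4 it was 0.69, 1.08 and 0.78, each with an interval above 0. Pmaip1 was also higher in these cells (1.18, 0.69 to 1.69), with intervals that included 0 in libraries 3 and 4. Mcl1 did not follow, at 0.08 (-0.06 to 0.22) pooled and -0.29 (-0.48 to -0.10) in library 2. The paper names Ccl3, Ccl4 and Siglecf among the genes high in the same neutrophil cluster. Because the Bcl2a1 genes were picked for their level in a neutrophil group, this division is no independent check. Its Bcl2a1 values are descriptions.

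RNA of Mcl1, which encodes a short-lived survival protein, was highest in neutrophil-like cells. Its level was 947 CPM (903 to 993) in neutrophil-like cells, 729 in non-classical monocyte-like, 417 in classical monocyte-like and 310 in endothelial-like cells. Macrophage-like cells had 297 and dendritic-like cells 289, and these last 3 classes did not differ from one another beyond counting error. T cell-like, NK cell-like and B cell-like cells lay between 112 and 129, where their intervals overlapped, and proximal tubule-like cells were lowest at 92.0. The proximal tubule-like level lay within the ambient range over libraries, 27.2 to 107. By library, neutrophil-like cells had 1084, 1269, 678 and 763 in libraries 1 to 4. All 4 values lay above the level of macrophage-like cells in any library (222 to 394).

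Against all other leukocyte-like cells the difference in Mcl1 was 1.83 on the log2 scale (1.75 to 1.92; 947 against 266). Within libraries 1 to 4 it was 2.64, 1.93, 1.26 and 1.69, and each interval lay above 0. Library 3 was again the lowest for the neutrophil-like level and for the difference. The ambient level of Mcl1 was 27.2 to 107 CPM, below every neutrophil-like value.

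Among leukocyte-like classes, Bcl2, the founding survival gene of the family, was highest in NK cell-like and T cell-like cells and lowest in neutrophil-like cells. NK cell-like cells had 368 CPM and T cell-like cells 213, while neutrophil-like cells had 4.43 from 8 UMIs. Non-classical monocyte-like cells had 70.5, from 9 UMIs, and B cell-like cells 58.6, from 25. T cell-like cells of libraries 1 to 5 had 232, 201, 242, 172 and 127. Neutrophil-like cells of libraries 1 to 4 had 18.7, 2.64, 6.32 and 0, where 0 UMIs in library 4 allows up to 14.8. The log2 difference between T cell-like and neutrophil-like cells was 5.59 (4.60 to 6.81), and it was 3.64 (1.14 to 8.95, with 1 neutrophil-like UMI), 6.25 (4.38 to 9.31, with 2) and 5.26 in libraries 1, 2 and 3. In library 4, with no Bcl2 UMI in neutrophil-like cells, the T cell-like level was 11.7-fold the level that 3 neutrophil-like UMIs would give. With the counting error of both groups, the lower end of the log2 difference was 3.16. The ambient level of Bcl2 was 2.78 to 8.49, and the counting interval of the neutrophil-like level overlapped that of the ambient level in each of libraries 1 to 4, so no expression is read from these UMIs. Among the kidney's own cells, fibroblast/pericyte-like cells had 69.5 and podocyte-like cells 55.9, the second from 4 UMIs.

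**Figure D4:**
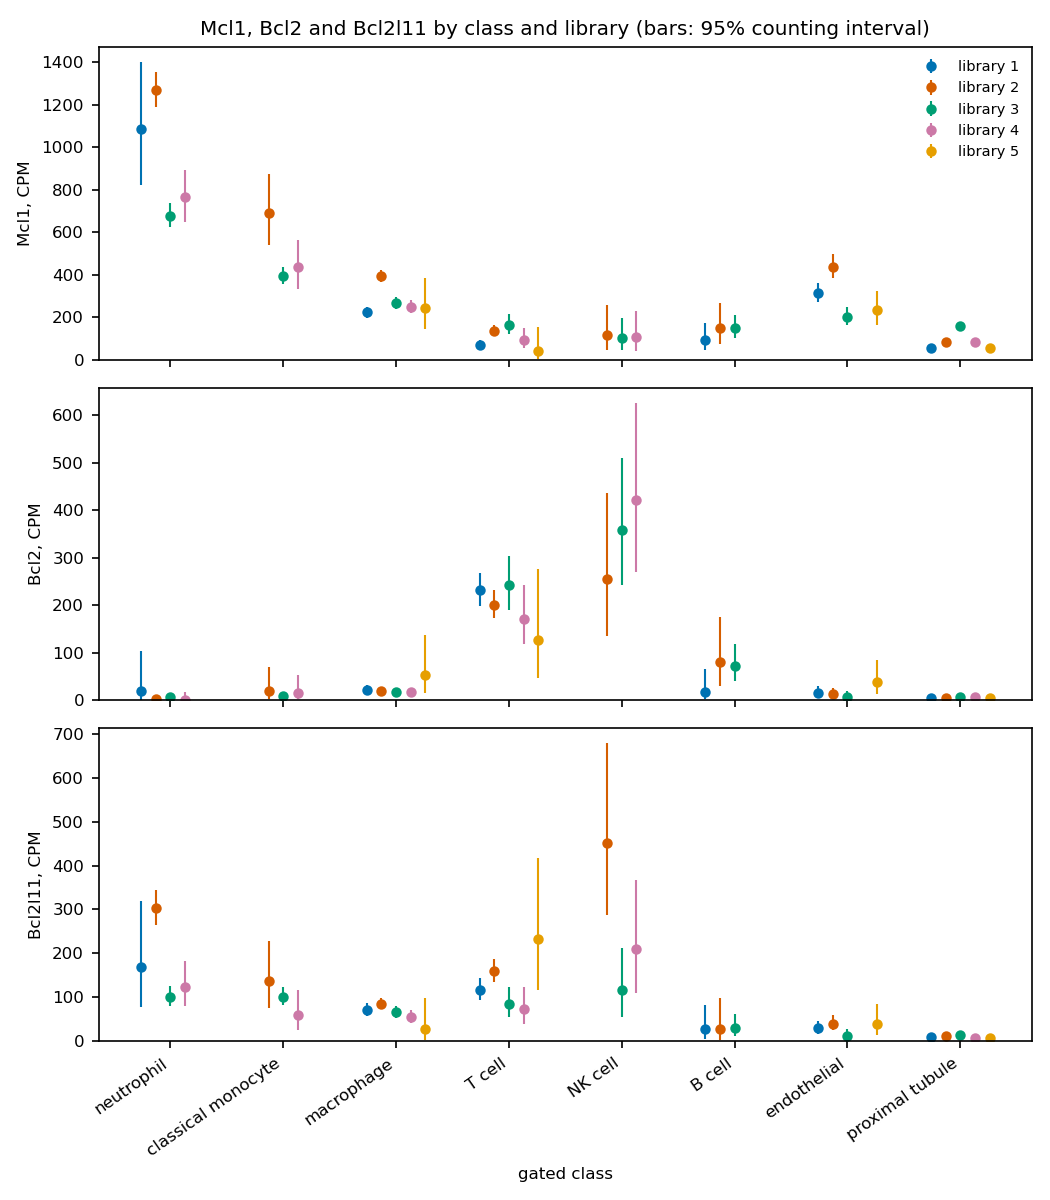
Mcl1, Bcl2 and Bcl2l11 (panels from top to bottom) in CPM, in 8 gated classes (horizontal axis), 1 point per library with at least 20 cells, bars giving the 95% counting interval. Mcl1 is highest in neutrophil-like cells of libraries 1 to 4, Bcl2 in NK cell-like and T cell-like cells, and Bcl2l11 reaches 453 in NK cell-like cells of library 2.

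Bcl2l1, which encodes Bcl-xL, was led by endothelial-like cells at 142 CPM (125 to 160), with 104, 199, 113 and 149 in libraries 1, 2, 3 and 5. Principal cell-like cells followed at 89.9 and neutrophil-like cells at 81.5. The interval of the ratio between these 2 neighbours included 0. Neutrophil-like cells had more than other leukocyte-like cells, by 1.21 (0.93 to 1.49; 81.5 against 35.2), and the difference in libraries 1 to 4 was 1.89, 1.57, 0.59 and 0.93, with an interval that included 0 in library 4. The ambient level of Bcl2l1 ran from 21.3 in library 1 to 52.0 in library 4. The pooled level of other leukocyte-like cells lay within that range and is not read as expression. The part of ambient RNA in the difference was not tested.

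Among the death genes, Bcl2l11 (Bim) was highest in NK cell-like cells at 251 and next in neutrophil-like cells at 190, which did not differ beyond counting error. Neutrophil-like cells exceeded other leukocyte-like cells by 1.06 (0.88 to 1.24; 190 against 91.2). By library the neutrophil-like level was 168, 303, 101 and 123, and the difference 0.90, 1.40, 0.41 and 0.96, with library 2 highest on both counts. Without library 2 the pooled difference was 0.45. The interval of library 1 included 0.

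Bax, the effector, was lower in neutrophil-like cells than in other leukocyte-like cells, at 129 against 251 (-0.96, -1.16 to -0.77). It was lower in 4 of 4 libraries (-0.79, -0.36, -1.78 and -1.09), and the interval of library 1 included 0. The ambient level of Bax was 66.1, 64.7, 110 and 126 in libraries 1 to 4, above the neutrophil-like level of 93.6 in library 3 and 113 in library 4, so the neutrophil-like Bax UMIs there are not read as expression. Macrophage-like cells of library 3 had the highest Bax level of that class, at 469 against 135 to 253 in the other libraries.

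Bbc3 (Puma) was sparse everywhere, with at most 47.0 CPM in non-classical monocyte-like cells, from 6 UMIs. Neutrophil-like cells had 3.32 against 10.2 in other leukocyte-like cells (-1.62, -3.10 to -0.45). Their 6 UMIs gave an interval of 1.22 to 7.24, which overlapped the ambient range of 1.24 to 2.43. No expression is read from these UMIs. Libraries 1 and 4 had 0 neutrophil-like Bbc3 UMIs, which allows levels of up to 56.0 and 14.8. Those limits lie above the other leukocyte-like levels there, 7.16 and 9.02. Pmaip1 (Noxa) stood out in dendritic-like cells at 314 (259 to 377), with 318 and 350 in libraries 1 and 2. Neutrophil-like cells had 79.2 against 67.4 in other leukocyte-like cells, a difference whose interval included 0 (0.23, -0.04 to 0.50) and whose sign varied, from -1.24 (-4.29 to 0.63, with 2 UMIs) in library 1 to 1.30 in library 4.

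In this comparison 4 of 10 members were at least 2-fold higher in neutrophil-like cells (Bcl2a1a, Mcl1, Bcl2l1 and Bcl2l11), beside 12.3% of 12095 genes, and 2 of 10 at least 2-fold lower (Bcl2 and Bbc3), beside 26.7%. Bcl2a1a was counted here although it took part in the choice of the members. Bcl2 and Bbc3 were counted although their 8 and 6 neutrophil-like UMIs are not read as expression. Neutrophil-like cells were shallow, at a median of 1282 UMIs. They carried 17.4 proximal tubule marker UMIs per 10000, against 8.49 in other leukocyte-like and 141 in proximal tubule-like cells. The part of these UMIs in the levels was not tested.

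In the tubule, proximal tubule-like cells were divided by a UMI of Havcr1, which encodes the injury marker Kim-1. The 3087 Havcr1-positive cells were spread as 138, 386, 2196, 334 and 33 over libraries 1 to 5, so library 3 held most of them, and 40823 cells had none. Havcr1-positive cells were deeper, at a median of 7165 against 4997 UMIs, and 18.2% of them against 9.57% of the others were among the cells with the highest doublet scores, taken at an assumed rate of 0.8% per 1000 cells. The caller's own threshold marked 601 of 57618 cells. The part of depth and doublets in the differences was not tested.

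Bbc3 was 3.53 CPM in Havcr1-positive and 1.72 in other proximal tubule-like cells, a log2 difference of 1.03 (0.69 to 1.37). It was 0.42 (-2.66 to 2.36, with 2 UMIs), 2.16, 0.73 and 0.96 in libraries 1 to 4, above 0 with its interval in libraries 2, 3 and 4. Library 5 had 0 UMIs in 33 cells, which allows a level of up to 8.97. The pooled levels are close to those of ambient droplets, which were 1.24 to 2.43. Without library 2 the pooled difference was 0.59 and without library 3 it was 1.69. Only 89 Bbc3 UMIs came from Havcr1-positive cells, 36 of them from library 2, where the level was 8.61.

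Pmaip1 was 70.4 against 49.8 (0.50, 0.43 to 0.57). The difference was 0.91, 0.63 and 0.31 in libraries 1, 2 and 4, 0.02 (-0.08 to 0.12) in library 3 and -0.38 (-1.70 to 0.67) in library 5. Bax was 115 against 108 (0.09, 0.03 to 0.14), within the ambient range of 64.7 to 126 over libraries, and was 0.31, 0.25 and 0.15 in libraries 1, 2 and 3, with intervals above 0, and 0.06 and -0.03 in libraries 4 and 5. Its pooled value was 0.05 without library 2, 0.05 without library 5 and 0.19 without library 3, and it was below 0 at -0.12 after thinning to 1000 UMIs.

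For Mcl1 the pooled value and the values within libraries differed. Over all cells it was 138 against 87.0 (0.66, 0.61 to 0.72), and in library 3, with most of the Havcr1-positive cells, it was 159 against 160 (-0.01, -0.08 to 0.05). In libraries 1 and 2 it was 0.42 and 0.65, and in libraries 4 and 5 0.09 and -0.08, where the intervals included 0. Over all proximal tubule-like cells the Mcl1 level was 57.0, 81.1, 160, 81.1 and 56.7 in libraries 1 to 5, so library 3 stood highest. The ambient level of Mcl1 was 27.2, 103, 98.9, 107 and 58.3 in the same order. The proximal tubule-like level was thus not above ambient in libraries 2, 4 and 5. The part of ambient RNA in the Mcl1 differences was not tested. Bcl2l1 was 0.35 pooled, and 0.14, 0.65, 0.26, 0.49 and -0.65 by library, and Bcl2l11 was 0.47 pooled and -0.06 in library 3.

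**Figure D5:**
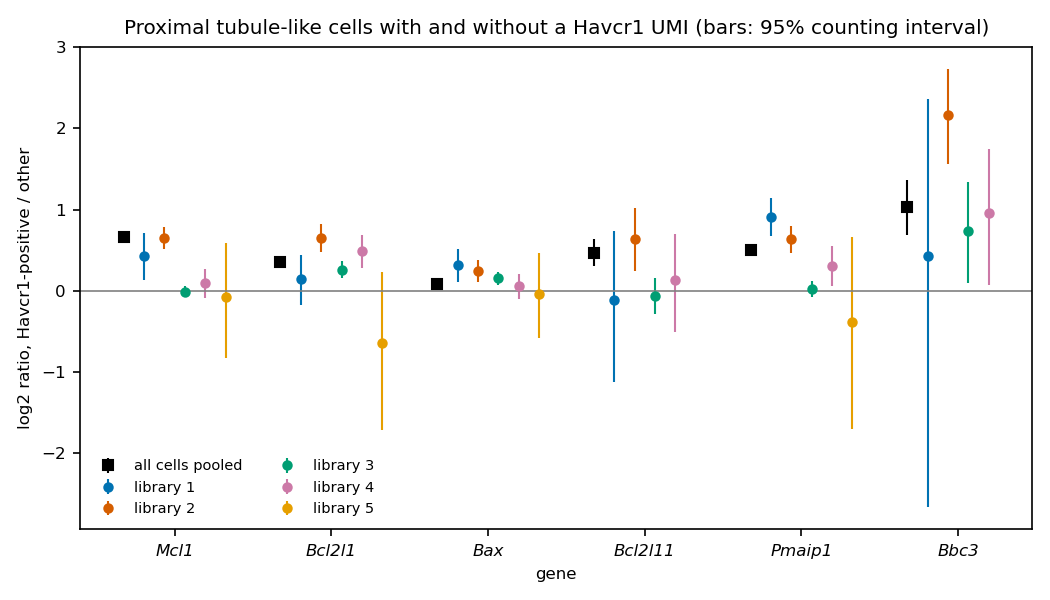
Log2 ratio of the level in Havcr1-positive to that in other proximal tubule-like cells (vertical axis) for 6 members, as black squares for all cells pooled and coloured points for single libraries, bars giving the 95% counting interval. For Mcl1 the pooled square lies at 0.66 and the library 3 point at -0.01. Points with 0 UMIs in a group are not drawn.

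Of the 10 members, 1 was at least 2-fold higher in Havcr1-positive cells (Bbc3), beside 4.12% of 15876 genes, and 3 were at least 2-fold lower (Bcl2a1a, Bcl2a1b and Bcl2a1d), beside 3.94%. The lower 3 were at 1.15 against 3.79 CPM in sum, both below the ambient level of libraries 1 to 4.

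The rest of the pathway was taken from lists of other family members, of genes that act after the mitochondrial step, of p53 genes and of NF-kB genes. Between neutrophil-like and other leukocyte-like cells, 2 of the 11 other Bcl2 family genes that could be compared were at least 2-fold higher (12.3% over all genes) and 3 at least 2-fold lower (26.7% over all genes). The higher genes were Bid (28.8 against 13.9) and Bcl2l15 (9.97 against 0.573), and the lower ones Bak1, Bcl2l12 and Bcl2l2, with an interval that included 0 for Bcl2l2. Bak1, the second pore-forming effector, was 17.2 against 43.2 (-1.33, -1.90 to -0.80), and was -0.94 and -1.32 in libraries 2 and 3. Neutrophil-like cells of libraries 1 and 4 had no Bak1 UMI, which allows levels of up to 56.0 and 14.8. Between Siglecf-positive and other neutrophil-like cells 0 of 4 passed, beside 11.0% of all genes higher and 15.5% lower. In Havcr1-positive cells 0 of 11 were higher (4.12% over all genes) and 1 lower (3.94%), the effector relative Bok at 3.69 against 7.82. For Bok the interval included 0 in each of the 5 libraries, at -0.37, -0.05, -0.09, -0.63 and 1.12, so the pooled difference was not seen within libraries.

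Of 12 genes that act after the mitochondrial step, 1 was at least 2-fold higher in neutrophil-like cells, beside 12.3% of all genes. Another 1 was at least 2-fold lower, beside 26.7% of all genes. Nothing about the list is read from these counts. The inhibitor of apoptosis Birc3 was 196 against 63.7 (1.62, 1.43 to 1.81), and 1.38, 2.03, 1.32 and 1.91 in libraries 1 to 4, each with an interval above 0. The protease Htra2 was 9.97 against 32.3, from 18 UMIs. In Havcr1-positive cells Birc3 was the 1 of 12 that was higher, at 6.98 against 2.93 (1.25, 1.01 to 1.49), beside 4.12% of all genes. Its difference was 1.40, 1.77, 0.42 and 1.53 in libraries 1 to 4, least in library 3. Diablo, which counters the inhibitors, was 65.5 against 18.2 in Siglecf-positive cells, from 10 and 30 UMIs, and 1.66 (0.25 to 2.94) in library 2. It was the 1 of 9 that passed there, beside 11.0% of all genes.

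Of 7 p53 genes that could be compared between neutrophil-like and other leukocyte-like cells, 3 were at least 2-fold lower, beside 26.7% of all genes. These were Trp53 (24.4 against 59.9), Phlda3 and Zmat3, the last 2 from 4 neutrophil-like UMIs each and with an interval that included 0 for Zmat3. Between Siglecf-positive and other cells 1 of 5 was higher, beside 11.0% of all genes. It was the cell cycle inhibitor Cdkn1a, at 1113 against 515 (1.11, 0.87 to 1.35). Within libraries 2 and 4 the difference in Cdkn1a was smaller, at 0.44 (0.15 to 0.71) and 0.79 (0.17 to 1.38). In Havcr1-positive cells 0 of 8 passed in either direction, beside 4.12% of all genes higher and 3.94% lower. The median was 0.11 against 0.04 over all genes.

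Of the 7 NF-kB genes, 2 were at least 2-fold higher in neutrophil-like cells, beside 12.3% of all genes. Nfkbia was 3554 against 991, with 1.49, 2.05, 1.56 and 2.11 in libraries 1 to 4. Icam1 was 276 against 121, with 1.79, 1.02 and 1.75 in libraries 2, 3 and 4 and -0.46 (-1.68 to 0.53) in library 1. Icam1 was also the 1 of 7 that was higher in Siglecf-positive cells (629 against 243, a difference of 1.37), beside 11.0% of all genes. Within libraries 2 and 4 the difference in Icam1 was 0.65 (0.21 to 1.07) and 2.16 (1.35 to 2.98). The paper names Icam1 and Siglecf among the genes high in the same neutrophil cluster, so this difference is a description and no independent result. In Havcr1-positive cells 1 of 7 was higher, Relb at 5.87 against 2.71 (1.11), beside 4.12% of all genes. The interval of Relb lay above 0 in library 2 (1.63) and at its lower end near 0 in library 3 (0.42).

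Genes with the most similar distribution over the 16 classes were sought among 14331 genes by Pearson correlation of log2(CPM + 1), gate markers left out. The classes share libraries and differ in depth, so these are descriptions. For the Bcl2a1 sum they were Dck (r = 0.95), Batf (0.95), Cd53 (0.94), Plxnc1 (0.93) and AB124611 (0.93). For Mcl1 they were Trem1 (0.91), Etf1 (0.90), Ets2 (0.90), Bst1 (0.89) and Nfkbia (0.89), and for Bcl2 they were Dnajc9 (0.89), Pdcd4 (0.88), Larp7 (0.87), Hist1h4d (0.86) and Slbp (0.84).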

How the data were processed

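The authors deposited raw UMI counts as a merged matrix of 5 libraries, made with Cell Ranger 6.0 on mm10 per the labels, before any cell was called. Cells were called per library with a first step on total UMIs and a second step against the ambient profile (10000 simulated draws, adjusted p of at most 0.01), then cells with under 200 genes or over 25% of counts on 13 mitochondrial genes were left out. Libraries held 82426945 to 139382799 UMIs. Doublets were kept, and Scrublet (scanpy 1.11.5) was an alternative. Cells that passed several of the monocyte and macrophage gates and no other gate were kept. They counted as macrophage-like where they passed that gate, and otherwise as non-classical monocyte-like. Cells passing other combinations of gates (1773) or none (6111) and 28 erythroid-like cells were left out of the classes. UMIs were summed over cells and compared as log2 ratios with exact conditional binomial intervals, shares with Clopper-Pearson intervals (SciPy 1.17.1). Beside most counts of 0 in a class stands the level that 3 UMIs would give. Values within a library needed 20 cells per group. A gene passed the fold at 2-fold with at least 20 UMIs over both groups. Calling and ratios were tested on simulated data. The members, lists and markers were chosen with earlier results of these data known, and the gate limits were set after the files had been seen. Genes named are the 10 members, the listed pathway genes past the fold, and the 5 genes most similar to Bcl2a1, Mcl1 and Bcl2. Goblet cell and eosinophil genes were chosen after values had been seen. Alternatives covered calling, filters, gates, doublets, depth, averaging, the dividing gene and each library left out.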

Additional observations from a re-analysis of the deposited data

How the results depend on the processing

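No paired analysis of conditions was possible because no label ties a library to a condition or a replicate number, so conditions were not compared. The groups of a ratio were set against each other within libraries where both had at least 20 cells. Libraries 1 to 4 held cells of both groups of each ratio, in unequal numbers. Library 5 held 1 neutrophil-like cell and no Siglecf-positive one. Values combined within libraries are given with the others. Of 131 alternative values for the 9 main ratios, 128 kept the sign, 85 moved by less than their counting interval, and 3 changed sign. They were Bax in Havcr1-positive cells, at -0.017 with the gate limits doubled and -0.12 after thinning to 1000 UMIs, and Bcl2l1 in Siglecf-positive cells, at -0.06 without library 2. The causes were not tested. The alternatives draw on the same libraries and largely the same cells, so these counts are no independent check. All values are log2 ratios. For Bcl2a1 in Siglecf-positive cells (0.74), the ratio was 0.96 with the first 3 markers, 0.97 with gate limits doubled, 0.53 as a mean over cells, 1.12 with Ccl3 or Ccl4 in place of Siglecf, 0.54 after thinning and 0.25 combined within libraries, the last chosen after seeing the data. For Bcl2a1 in neutrophil-like against monocyte/macrophage-like cells (0.85), the same settings gave 0.44, 0.47, 1.00, 0.99 after thinning and 1.07 within libraries, and 0.91 without the cells that had the highest Scrublet scores. Mcl1 in neutrophil-like cells (1.83) was 1.66 with the first 3 markers, 1.59 with limits doubled, 2.08 as a mean over cells, 2.11 after thinning and 1.69 within libraries. Bcl2l11 (1.06) was 0.84, 0.75 and 0.78 with the first 3 markers, limits doubled and thinning. In Havcr1-positive cells, Bbc3 (1.03) was 0.57 with limits doubled. Pmaip1 (0.50) was 0.25 with limits doubled, 0.63 as a mean over cells and 0.24 within libraries, and Bax (0.09) was 0.17 within libraries. With a UMI of Krt20 or Vcam1 in place of Havcr1, the values were 1.79 for Bbc3, 0.86 for Pmaip1 and 0.26 for Bax. With each library left out in turn, the range was 0.23 to 1.47 for Bcl2a1 in Siglecf-positive cells, 0.17 to 1.16 for Bcl2a1 against monocyte/macrophage-like cells, 1.62 to 2.16 for Mcl1, 5.28 to 6.14 for Bcl2, -0.06 to 0.46 for Bcl2l1 in Siglecf-positive cells, 0.45 to 1.42 for Bcl2l11 and, in Havcr1-positive cells, 0.049 to 0.19 for Bax, 0.59 to 1.69 for Bbc3 and 0.35 to 0.70 for Pmaip1. Leaving out library 2 or 3 gave the lowest and highest values except the low end for Pmaip1, from library 5, and the high end for Bcl2l1, from library 4. Bbc3 and Bcl2 rested on 6 and 8 UMIs in neutrophil-like cells.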
